A study of Mus musculus with 13 samples.

Results

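H3K27ac, the acetylated form of histone H3 at lysine 27 that marks promoters and enhancers in use, was compared between mouse macrophages given interferon-γ (IFNγ) and interleukin-4 (IL-4) together for 2 h and untreated macrophages. The cells were primary macrophages grown from C57BL/6 bone marrow in medium conditioned by L929 cells, taken on day 7 of differentiation. Treated cells received IFNγ at 100 ng/ml and IL-4 at 10 ng/ml at the same time, and untreated cells received no cytokine. The labels name no genetic change in either group. The series holds 13 libraries of H3K27ac chromatin immunoprecipitation and sequencing, 1 per condition, of which 7 form the cytokine experiment and 6 are cells with a scramble shRNA or one against JunB or C/EBP-beta, each untreated and after IFNγ at 100 ng/ml for 4 h. Every difference below is therefore a difference between 2 libraries, with no spread between cultures to set it against and no test. Enriched stretches of the genome (islands) of the untreated library and the 3 libraries at 2 h were merged into 36202 regions, and the 30938 of them that were called in at least 1 of the compared libraries with 50 or more normalised reads were compared. Merging the islands of all 13 libraries gave 39569 regions.

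IFNγ signals through the kinases JAK1 and JAK2 to transcription factors of the STAT family, which induce genes of microbial killing and antigen presentation. IL-4 signals through JAK1 and JAK3 to STAT6, which induces genes of tissue repair and lipid metabolism. Macrophages given one of these cytokines take on states called classical and alternative activation, and the series compared each cytokine with the combination. H3K27ac at 2 h is an early readout of enhancer and promoter activity.

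Library totals were recovered as the smallest that fit the deposited ratios of ChIP to control reads. They were 21.7 M reads for the untreated library and 26.9 M with both cytokines, of which 77.5% and 77.1% lay in islands. Islands numbered 29398 and 33571 and covered 183 and 181 Mb, so with both cytokines there were more islands of shorter length. Reads were scaled by size factors from regions called in all 4 libraries. Higher and lower below mean a difference of at least 2-fold in normalised reads with at least 50 in the higher library. Reads of all regions that touch a gene or the 1 kb on either side were added up per gene, and 46.5% of the 13211 genes compared share a region with another gene. Where a library had no island at a locus its level is unknown rather than 0, so no fold against it is printed for a gene. Calls and list medians use for it a filled value, 52.9 normalised reads for the untreated library. Whether a gene called only with both cytokines counts as higher thus depends on its reads in that library alone. Most such genes named below lie far above the fill, while Tgtp2 and Il12a, at 76.0 and 71.4 reads, did not pass. Called untreated values can also lie below the fill, as at Spsb1 (34.9), Ifit3 (39.4), Upp1 (40.5), Rgs7bp (41.6), Kirrel3, Pla2r1 and Ifi44 (43.9 each). Large folds at such genes rest on few untreated reads. Intervals of a fold are exact binomial (Clopper-Pearson) intervals, and since reads carry no molecular identifiers they cover counting error only. As a check of the labelled cell type, Csf1r, the receptor for macrophage colony-stimulating factor, had 12526 normalised reads in untreated cells, 14477 with IL-4, 14205 with IFNγ and 13141 with both, in a region shared with Pdgfrb and Hmgxb3. Spi1, which encodes the myeloid transcription factor PU.1, had 11114 normalised reads in untreated cells, 11211 with IL-4, 12427 with IFNγ and 11724 with both, in regions shared with Slc39a13. The T cell genes Cd3g, Cd8a and Bcl11b, the B cell genes Pax5, Ebf1 and Blk, the collagen genes Col1a2 and Col3a1 and the globin genes Hbb-bs and Hba-a1 were called in none of the 4 libraries. Other members of the same marker lists, such as Cd4 and Ms4a1, were called, and 5 macrophage identity genes were lower with both cytokines, as described below.

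Of the 30938 regions 6048 (19.5%) were higher with both cytokines and 6915 (22.4%) were lower. Of the higher regions 3081 were called in both libraries and 2967 had no island in untreated cells. Of the lower regions 3953 were called in both and 2962 had no island with both cytokines. At least 4-fold differences were found at 2402 higher and 2296 lower regions. Near the threshold, 524 higher regions had a log2 ratio from 1 to 1.1 and 558 regions that did not pass had one from 0.9 to 1. Higher and lower regions also differed in how much of them was called. Among regions called in both libraries, higher ones had a median called length of 7.6 kb with both cytokines against 3.6 kb untreated, and 98.6 against 52.5 normalised reads per called kb. Lower ones had 3.0 kb against 7.2 kb and 50.4 against 78.6 reads per kb. Counted by reads per kb of called length, 3039 regions were higher and 1708 lower.

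**Figure D1:**
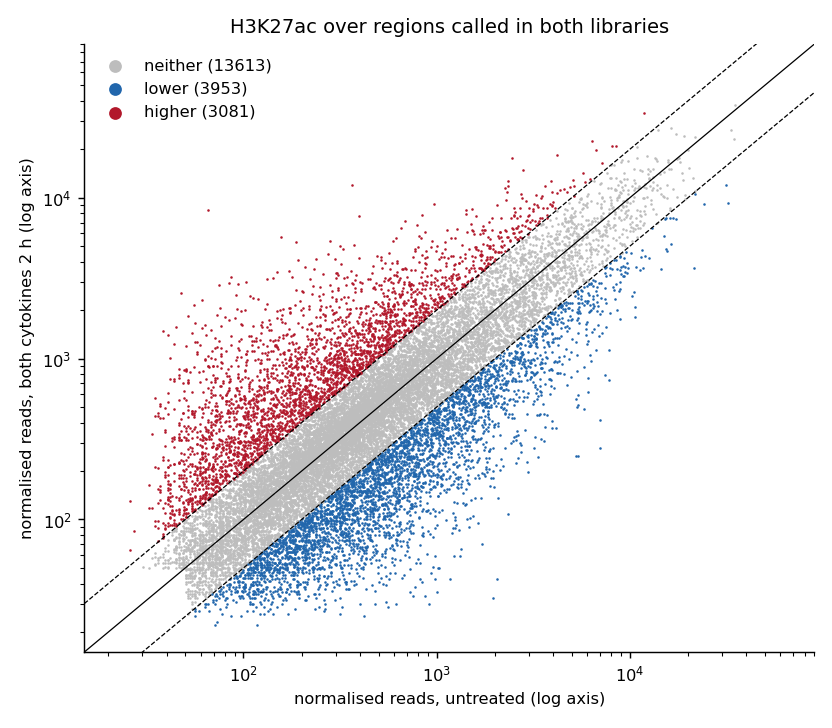
Normalised H3K27ac reads of each region called in both libraries, untreated on the x axis and both cytokines for 2 h on the y axis, both log axes. The solid line marks equal reads and the dashed lines a 2-fold difference, with 3081 regions in red above it and 3953 in blue below it.

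Regions over a gene start changed less often than regions elsewhere. Of 8139 regions over a protein-coding gene start 12.3% were higher and 9.06% lower, of 14180 within a gene or its flanks 21.2% and 26.5%, and of 8619 away from genes 23.6% and 28.1%. Over gene starts higher calls outnumbered lower ones, and away from starts lower calls outnumbered higher ones. With regions split by length into 4 groups from shortest to longest, 7.24%, 19.3%, 26.4% and 26.3% were higher, and 16.5%, 26.1%, 26.1% and 21.5% were lower. The higher regions covered 62.6 Mb and the lower ones 57.2 Mb. By chromosome the share of higher regions ran from 14.6% on chromosome 7 to 23.9% on chromosome 19, leaving out chromosome Y with 7 regions. In the higher regions the median was 355 normalised reads with both cytokines, 313 with IFNγ and 134 with IL-4. In the lower regions it was 51.0 with both, 79.0 with IFNγ, 95.3 with IL-4 and 268 untreated.

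At the level of genes, 1969 of 13211 (14.9%) were higher and 1535 (11.6%) lower, of which 1663 and 1336 were called in both libraries. By reads per kb of called length 800 genes (6.06%) were higher and 325 (2.46%) lower. The median log2 ratio over all genes compared was 0.07. Counts of each gene list below are to be read beside these shares.

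Promoters where H3K27ac was higher with both cytokines are shown with the letters that match 3 patterns, since these carry the best known sites of the pathways. The pattern TTCNNNGAA is the core of the site that STAT dimers bind, TTCNNNNGAA is the wider spacing that STAT6 favours, and GAAANNGAAA, on either strand, is the core of the interferon-stimulated response element. Each sequence runs from 250 bases before to 50 bases after a gene start, is from RefSeq on GRCm38.p6, reads 5′ to 3′ on the gene's strand, and has the matching letters in capitals. Irf1, Gbp5 and Serpina3f are shown for genes that were high with IFNγ, and Cish and Tmem26 for the IL-4 lists. Socs1 is shown for genes that were high with every treatment. Each of these promoters holds at least 1 match. Among promoters in higher regions only 9.86%, 7.23% and 6.25% hold the respective pattern, so the printed ones are not typical of them.
Irf1 promoter, chr11:53769764-53770063, plus strand: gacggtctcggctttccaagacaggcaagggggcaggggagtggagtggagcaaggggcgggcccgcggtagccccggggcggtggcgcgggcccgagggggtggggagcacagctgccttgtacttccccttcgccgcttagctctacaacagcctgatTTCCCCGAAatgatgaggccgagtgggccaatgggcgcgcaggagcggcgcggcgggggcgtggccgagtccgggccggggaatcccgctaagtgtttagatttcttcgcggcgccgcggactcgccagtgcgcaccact
Gbp5 promoter, chr3:142496684-142496983, plus strand: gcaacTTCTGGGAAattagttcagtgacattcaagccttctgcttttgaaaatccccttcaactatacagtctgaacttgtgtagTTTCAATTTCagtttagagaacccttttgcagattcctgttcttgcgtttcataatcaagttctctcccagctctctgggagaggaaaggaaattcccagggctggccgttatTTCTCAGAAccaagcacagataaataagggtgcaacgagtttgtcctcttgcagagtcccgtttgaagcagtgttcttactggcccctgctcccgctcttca
Serpina3f promoter, chr12:104214294-104214593, plus strand: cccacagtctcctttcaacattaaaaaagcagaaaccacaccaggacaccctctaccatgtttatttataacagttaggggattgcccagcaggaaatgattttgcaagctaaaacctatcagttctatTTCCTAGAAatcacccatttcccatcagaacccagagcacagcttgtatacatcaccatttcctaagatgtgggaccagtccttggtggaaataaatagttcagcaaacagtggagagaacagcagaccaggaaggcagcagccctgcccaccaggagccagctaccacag
Socs1 promoter, chr16:10785487-10785786, minus strand: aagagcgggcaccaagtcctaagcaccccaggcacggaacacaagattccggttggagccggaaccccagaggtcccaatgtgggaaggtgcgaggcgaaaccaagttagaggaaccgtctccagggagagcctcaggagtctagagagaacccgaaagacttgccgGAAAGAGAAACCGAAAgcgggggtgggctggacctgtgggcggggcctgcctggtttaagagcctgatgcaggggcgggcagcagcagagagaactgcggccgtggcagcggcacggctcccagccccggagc
Cish promoter, chr9:107296409-107296708, plus strand: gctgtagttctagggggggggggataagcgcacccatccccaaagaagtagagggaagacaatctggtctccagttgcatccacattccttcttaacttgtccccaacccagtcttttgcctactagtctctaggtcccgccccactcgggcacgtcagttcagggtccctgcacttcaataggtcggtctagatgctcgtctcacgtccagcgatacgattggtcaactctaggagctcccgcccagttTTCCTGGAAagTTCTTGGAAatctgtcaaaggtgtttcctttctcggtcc
Tmem26 promoter, chr10:68723496-68723795, plus strand: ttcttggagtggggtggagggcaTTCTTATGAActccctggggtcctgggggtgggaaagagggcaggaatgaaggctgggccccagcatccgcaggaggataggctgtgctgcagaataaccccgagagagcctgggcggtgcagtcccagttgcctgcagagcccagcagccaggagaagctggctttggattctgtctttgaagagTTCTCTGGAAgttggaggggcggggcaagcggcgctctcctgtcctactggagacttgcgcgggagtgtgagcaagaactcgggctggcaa
Irf1 has 1 match of TTCNNNGAA, which begins at position -90 from the gene start. Gbp5 has 3 matches, of TTCNNNGAA and GAAANNGAAA, and Serpina3f has 1, of TTCNNNGAA, at position -121. In Socs1 2 overlapping matches of GAAANNGAAA form 1 run. Cish has 2 matches of TTCNNNGAA and Tmem26 has 2 of TTCNNNNGAA. The promoters of Serpina3f, Cish and Tmem26 were under no island in untreated cells and under one with both cytokines, and the other 3 were under an island in both libraries.

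Over all protein-coding promoters in the RefSeq table, 21263 in number, 7.69% hold TTCNNNGAA, 6.35% TTCNNNNGAA and 3.35% GAAANNGAAA. Among the 1328 promoters in higher regions the shares were 9.86%, 7.23% and 6.25%, and among the 955 in lower regions 5.34%, 4.71% and 2.72%. The 8879 promoters in regions that were neither had 7.05%, 5.32% and 3.07%, and the 9806 under no region 8.29%, 7.32% and 3.28%. The pattern TGANTCA, the core of the AP-1 site, stood at 7.30% in higher, 7.23% in lower and 4.60% in neither, 9.13% under no region, against 6.99% of all promoters. These are matches of letters within 300 bases, not measured binding.

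The guanylate-binding proteins (GBPs) and immunity-related GTPases, which attack vacuoles that hold microbes, had the highest median of the 16 gene lists. Of 15 measured members 13 were higher and 0 lower, with a median log2 ratio of 2.41. Gbp3 and Gbp5 share regions with Gbp7, Gbp2 with Gbp2b and Gbp4 with Gbp9, so the 13 calls are not 13 separate loci. Gbp5, which also promotes inflammasome activity, had 493 normalised reads in untreated cells, 1041 with IL-4, 7778 with IFNγ and 6722 with both. With both cytokines it was 13.6-fold higher than untreated (95% interval 12.4 to 15.05), close to its level with IFNγ alone, in regions shared with Gbp7. Gbp4 had 153 normalised reads in untreated cells, 351 with IL-4, 1957 with IFNγ and 1572 with both, and was 10.3-fold higher in regions shared with Gbp9. Iigp1 and Tgtp1, both immunity-related GTPases, stood at 666 and 439 reads with both cytokines and had no untreated island. Over the 11 members called in both libraries 10 were higher, with a median of 2.18. By reads per kb 8 of 15 were higher, with a median of 1.00, and Gbp5 and Gbp4 had log2 ratios of 2.01 and 1.07.

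Interferon-stimulated antiviral genes had 15 of 24 members higher and 0 lower, with a median log2 ratio of 1.32. Ifit3, which binds foreign RNA as part of a complex, had 39.4 normalised reads in untreated cells, 43.9 with IL-4, 530.2 with IFNγ and 353 with both, and was 8.97-fold higher than untreated (95% interval 6.34 to 13.1). Ifi44 had 43.9 normalised reads in untreated cells, 68.2 with IL-4, 249 with IFNγ and 325 with both, a 7.41-fold difference from untreated. At Ifit3 and Ifi44 the libraries with IFNγ, alone or with IL-4, stood apart from the other 2. Usp18, an enzyme that removes ISG15 from proteins and damps interferon signalling, differed from these in being high with either cytokine: it had 1109 normalised reads in untreated cells, 4265 with IL-4, 5190.4 with IFNγ and 4955 with both, in regions shared with Tuba8. Zbp1, a sensor of nucleic acids in the Z form, had 602 normalised reads in untreated cells, 1402 with IL-4, 2624 with IFNγ and 2616 with both, in a region shared with Pmepa1. Per called kb 8 of 24 were higher, and Ifit3, Usp18 and Zbp1 did not pass, with 0.99, 0.61 and 0.78.

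The classical activation list had 13 of 22 genes higher and 0 lower, with a median of 1.16. Cxcl9 and Cxcl10, chemokine genes whose products draw activated T cells, lie in 1 region, chr5:92307201-92385800, which had 2437 normalised reads in untreated cells, 3021 with IL-4, 20084 with IFNγ and 17695 with both. It was 7.26-fold higher than untreated (95% interval 6.95 to 7.60) with both cytokines, and is shared with Art3 and Sdad1. Upp1, a uridine phosphorylase, had 40.5 normalised reads in untreated cells, 208 with IL-4, 1304 with IFNγ and 611 with both. Its level with both cytokines was 15.1-fold above untreated and below that with IFNγ alone, and by reads per kb it had a log2 ratio of -0.02. Ido1, which degrades tryptophan, had 371 normalised reads with IFNγ and 364 with both, and no island in untreated cells or with IL-4, in a region shared with Adam18. Il6, an inflammatory cytokine gene, had 143 normalised reads with IL-4, 348 with IFNγ and 338 with both, and no island in untreated cells. Nos2, the inducible nitric oxide synthase and the classical marker of this state, did not pass: it had 1042 normalised reads in untreated cells, 267 with IL-4, 975 with IFNγ and 1265 with both. With both cytokines Nos2 was 1.21-fold higher than untreated (95% interval 1.12 to 1.32), the highest of the 4 libraries, and IL-4 alone was the lowest, while per called kb its log2 ratio was -0.50. Merging the islands of all 13 libraries gave Nos2 a log2 ratio of 1.33, which passed. Il12b, a subunit of interleukin-12, had 1303 normalised reads in untreated cells, 388 with IL-4, 1347 with IFNγ and 991 with both, so IL-4 alone was again the lowest. With the 13-library merge and with 10 kb gene flanks Il12b was lower by the rule, at -1.24 and -1.22.

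Genes of the interferon pathway were higher more often than lower, as were all genes compared, with 14.9% higher and 11.6% lower. Of 21 receptors, kinases and transcription factors 8 were higher and 1 lower, with a median of 0.59. Ifngr1, the ligand-binding chain of the IFNγ receptor, was the lower one. It had 6464 normalised reads in untreated cells, 4869.7 with IL-4, 2476 with IFNγ and 2358 with both, and was 2.74-fold lower than untreated (95% interval 2.62 to 2.87). Both libraries with IFNγ were low at Ifngr1, and the library with IL-4 alone lay between them and untreated. Jak2, the kinase bound to that receptor, had 493 normalised reads in untreated cells, 5449 with IL-4, 3770 with IFNγ and 4314 with both, and was 8.75-fold higher than untreated (95% interval 7.93 to 9.67). Irf1, the transcription factor whose promoter is printed above, had 3554 normalised reads in untreated cells, 3062 with IL-4, 8369.7 with IFNγ and 8581 with both, and was 2.41-fold higher than untreated (95% interval 2.32 to 2.51). Both libraries with IFNγ stood above the other 2 at Irf1. Batf2, an AP-1 family member induced by interferons, had 567 normalised reads in untreated cells, 648 with IL-4, 5058 with IFNγ and 4501 with both, and was 7.93-fold higher than untreated (95% interval 7.24 to 8.71). Irf7, a regulator of type I interferon genes, had 717 normalised reads in untreated cells, 2291 with IL-4, 2092 with IFNγ and 2882 with both, in a region shared with 3 genes. Ciita, the master regulator of MHC class II, had 2831 normalised reads in untreated cells, 2822 with IL-4, 5507 with IFNγ and 4725 with both, and at 1.67-fold of untreated it did not pass. Per called kb Ifngr1, Irf1 and Irf7 did not pass, with log2 ratios of -0.84, 0.88 and 0.60.

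Socs1, whose product blocks JAK kinases and damps both cytokine signals, was high in all 3 treated libraries. The region over it, chr16:10727001-10801200, had 2337 normalised reads in untreated cells, 10863 with IL-4, 12138 with IFNγ and 12698 with both. It was 5.43-fold higher than untreated (95% interval 5.19 to 5.69) with both cytokines, and by reads per kb had a log2 ratio of 0.65. The region also spans Clec16a, Prm1, Prm2, Prm3 and Tnp2. The next region along the chromosome, chr16:10802001-10870200, lies in and around Rmi2, which encodes a subunit of the complex that dissolves recombination intermediates. It had 6589 normalised reads with IL-4, 11178 with IFNγ and 11479 with both, and no island in untreated cells. Among genes with no untreated island Rmi2 had the most reads.

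Antigen presentation was read in 2 lists. Of 16 class I and antigen processing genes 9 were higher and 0 lower, with a median of 1.12. Tap1, a subunit of the peptide transporter, had 1340.5 normalised reads in untreated cells, 2061 with IL-4, 3494 with IFNγ and 3664 with both, with regions shared with Psmb8 and Psmb9. B2m, the light chain of class I molecules, had 3947 normalised reads in untreated cells, 5315 with IL-4, 10179 with IFNγ and 8969.6 with both, in a region of 52.4 kb shared with 3 genes, and by reads per kb had a log2 ratio of 0.17. H2-Q4, a class I gene of the Qa region, had 49.5 normalised reads in untreated cells, 57.0 with IL-4, 191 with IFNγ and 190.1 with both, and genes of this region share sequence, so reads may be split between them. Of 10 class II genes 2 were higher, near the 14.9% of all genes, with a median of 0.37. H2-Ab1 had 192 normalised reads with IL-4, 229 with IFNγ and 169 with both, and no island in untreated cells, and it did not pass after control reads were subtracted or per called kb. H2-DMb1, higher with 140 against 61.9 reads, had -0.14 by reads per kb.

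**Figure D2:**
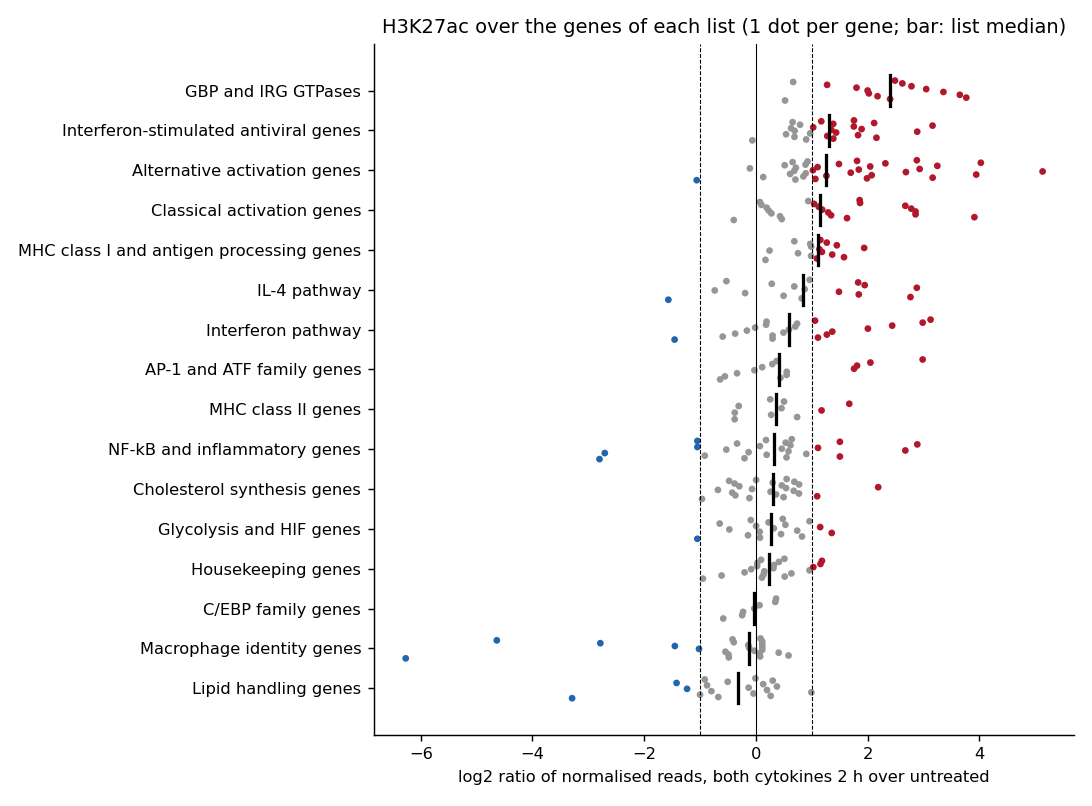
Log2 ratio of normalised reads with both cytokines for 2 h over untreated cells on the x axis for each gene (dot) of 16 lists (rows), with the list median as a bar. Red dots are higher and blue dots lower by the 2-fold rule marked with dashed lines, and 13 of 15 GTPases are red while the 5 macrophage identity genes in blue reach -6.27, computed there against the value filled in for a library with no island.

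Genes of alternative activation had 20 of 33 measured members (of 39 listed) higher and 1 lower, with a median of 1.26. Over the 27 members called in both libraries 14 were higher, with a median of 1.02, and over the 19 classical genes called in both 11 were higher, with a median of 1.13. Arg1, which converts arginine to ornithine, had 1441 normalised reads in untreated cells, 11889 with IL-4, 3095 with IFNγ and 6069 with both, in a region shared with Med23. With both cytokines it was 4.21-fold higher than untreated (95% interval 3.97 to 4.48), and its level lay between those with IL-4 and with IFNγ alone. Per called kb the ratio of Arg1 was 0.49, short of the rule. Cdh1, which encodes E-cadherin, a marker of alternatively activated macrophages, had 365 normalised reads in untreated cells, 14809 with IL-4, 5067 with IFNγ and 12824 with both. It was 35.2-fold higher than untreated (95% interval 31.5 to 39.4) in a region shared with Cdh3, with a log2 ratio of 1.49 by reads per kb. Hbegf, a growth factor of the EGF family, had 133 normalised reads in untreated cells, 1589 with IL-4, 1289 with IFNγ and 2169.6 with both, and was 16.3-fold higher with both. At Hbegf the library with both cytokines was the highest of the 4. Tmem26 had 2791 normalised reads with IL-4, 163 with IFNγ and 504 with both, and no island in untreated cells. Slc7a2, a transporter of arginine, had 1095 normalised reads with IL-4, 584 with IFNγ and 816 with both, and no island in untreated cells, in regions shared with Pdgfrl. Tmem26 and Slc7a2 were thus highest with IL-4 alone, and Tmem26 did not pass by reads per kb.

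The transcription factor gene Egr2, which IL-4 induces early, had 1013 normalised reads in untreated cells, 4081 with IL-4, 2137 with IFNγ and 2843 with both, in a region shared with Ado, and by reads per kb had a log2 ratio of 0.16. Mrc1, the mannose receptor, had 7704 normalised reads in untreated cells, 15229.5 with IL-4, 8111 with IFNγ and 14635 with both, in regions shared with Tmem236, and at 1.90-fold of untreated it did not pass, though it did after control reads were subtracted, at 1.06. Irf4 had 1274 normalised reads in untreated cells, 1750 with IL-4, 1212 with IFNγ and 2053 with both, short of the rule. Alox15, a lipoxygenase, was the lower member, with 2792 normalised reads in untreated cells, 1484 with IL-4, 1191 with IFNγ and 1341 with both, in a region shared with Pelp1. Merging only the compared libraries gave it -0.77 and merging with 1000 bp of overlap -0.80, neither of which passed. The textbook marker genes Retnla and Ccl17 were called in none of the 4 libraries, and Chil3, which encodes the chitinase-like protein Ym1, was called with IL-4 alone, at 194 reads.

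The IL-4 pathway list had 6 of 16 members higher and 1 lower, with a median of 0.85, beside 14.9% higher and 11.6% lower over all genes compared. The feedback inhibitors of the CIS and SOCS family were among the higher ones. Cish had 2763 normalised reads in untreated cells, 8975 with IL-4, 6314 with IFNγ and 9918 with both, in a region shared with 3 genes, and was 3.59-fold higher than untreated (95% interval 3.43 to 3.75), with 0.61 per called kb. Socs2 had 926 normalised reads with IL-4, 151 with IFNγ and 390.3 with both, and no island in untreated cells. Gata3, a transcription factor induced downstream of STAT6 in T helper cells, had 579 normalised reads with IL-4 and 361 with both, and no island in untreated cells or with IFNγ. Bcl6, a repressor of STAT6 target genes, had 2741 normalised reads in untreated cells, 5826 with IL-4, 13032 with IFNγ and 10589 with both, so that it was higher with IFNγ than with IL-4, and with both it was 3.86-fold higher than untreated (95% interval 3.70 to 4.04). Rxra, the partner of lipid-sensing nuclear receptors, was the lower member, with 6426 normalised reads in untreated cells, 2856 with IL-4, 2588 with IFNγ and 2169 with both. All 3 treated libraries were low at Rxra, and by reads per kb its log2 ratio was -0.35. Pparg, one such nuclear receptor, had 8682 normalised reads in untreated cells, 2924 with IL-4, 3476 with IFNγ and 7599 with both. Either cytokine alone left Pparg well under its untreated level, and both together stood at 0.875 of it (95% interval 0.848 to 0.903). Stat6 stood at 0.694 of untreated and did not pass.

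At some genes the library with both cytokines had the most reads of the 4, though at Batf3, Erg and Spsb1 by less than 2-fold over the larger single cytokine. Batf3, a transcription factor of the AP-1 family that some dendritic cells need and that is also in the alternative activation list, had 6361 normalised reads in untreated cells, 13366 with IL-4, 7859.9 with IFNγ and 22344 with both. The region, chr1:191060601-191137000, is 76.4 kb long and shared with Nsl1 and Tatdn3, and was 3.51-fold higher than untreated (95% interval 3.41 to 3.62). Its log2 ratio by reads per kb was 1.48. Erg, a transcription factor of the ETS family, had 132 normalised reads in untreated cells, 1199.7 with IL-4, 1622 with IFNγ and 3140.4 with both, and by reads per kb had a log2 ratio of 0.45. Spsb1, which encodes an adaptor of a ubiquitin ligase that can target the inducible nitric oxide synthase, had 34.9 normalised reads in untreated cells, 1569 with IL-4, 1519.9 with IFNγ and 2561 with both. It had the highest ratio of the genes called in both libraries, 73.4-fold higher than untreated (95% interval 51.6 to 108), with a log2 ratio of 1.01 by reads per kb. The untreated value of Spsb1 lies below the fill. Untreated scramble shRNA cells had 319 reads there, scaled over 13 libraries. Kirrel3, a cell adhesion gene, had 43.9 normalised reads in untreated cells, 250.4 with IL-4, 574 with IFNγ and 1281 with both. At each of these 4 genes the single cytokines lay between untreated cells and the combination.

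Other genes with high ratios differed in how they stood with each cytokine. Msx3, a homeobox gene, had 51.8 normalised reads in untreated cells, 5106 with IL-4, 205 with IFNγ and 1845 with both, and was 35.6-fold higher than untreated (95% interval 26.6 to 48.8). Ppp2r3a, a regulatory subunit of protein phosphatase 2A, had 77.7 normalised reads in untreated cells, 2739 with IL-4, 342 with IFNγ and 3048 with both. Tarm1, a receptor of myeloid cells, had 74.3 normalised reads in untreated cells, 2769 with IL-4, 1258 with IFNγ and 2883 with both. Msx3, Ppp2r3a and Tarm1 stood higher with IL-4 than with IFNγ, and with both cytokines Msx3 fell short of its level with IL-4 while the other 2 did not. Pla2r1, a receptor for secreted phospholipase A2, had 43.9 normalised reads in untreated cells, 357 with IL-4, 1502 with IFNγ and 1473 with both, and so stood with IFNγ. Serpina3f, a serine protease inhibitor gene, had 145 normalised reads with IL-4, 2125 with IFNγ and 2217 with both, and no island in untreated cells. Lipk, a lipase gene, had 729 normalised reads with IL-4, 1045 with IFNγ and 2204 with both, and no island in untreated cells, and Nrg1, the neuregulin gene, 148 normalised reads with IL-4, 1020.4 with IFNγ and 1901 with both, and no island in untreated cells. At Lipk and Nrg1 the library with both cytokines was again the highest. The region over the olfactory receptor genes Olfr700 and Olfr701 had 1455 normalised reads with IL-4, 3658 with IFNγ and 3520.5 with both, and no island in untreated cells. Ccdc162 had 104 normalised reads in untreated cells, 1711 with IL-4, 2559.8 with IFNγ and 3132 with both, Tmem52b, in a region shared with Olr1, 55.2 normalised reads in untreated cells, 1305 with IL-4, 1333 with IFNγ and 2160.3 with both, and Rgs7bp 41.6 normalised reads in untreated cells, 677 with IL-4, 749.7 with IFNγ and 1065 with both. These 3 stood high with either cytokine and highest with both, at 30.2-fold, 39.2-fold and 25.6-fold of untreated. Cystm1 had 2128 normalised reads with IL-4, 771 with IFNγ and 2626 with both, and no island in untreated cells, in regions shared with Pfdn1, and Micalcl, in a region shared with Mical2, 1607 normalised reads with IL-4, 688 with IFNγ and 1847 with both, and no island in untreated cells. Per called kb Ppp2r3a, Rgs7bp and Nrg1 did not pass, the first 2 at 0.73 and 0.59.

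**Figure D3:**
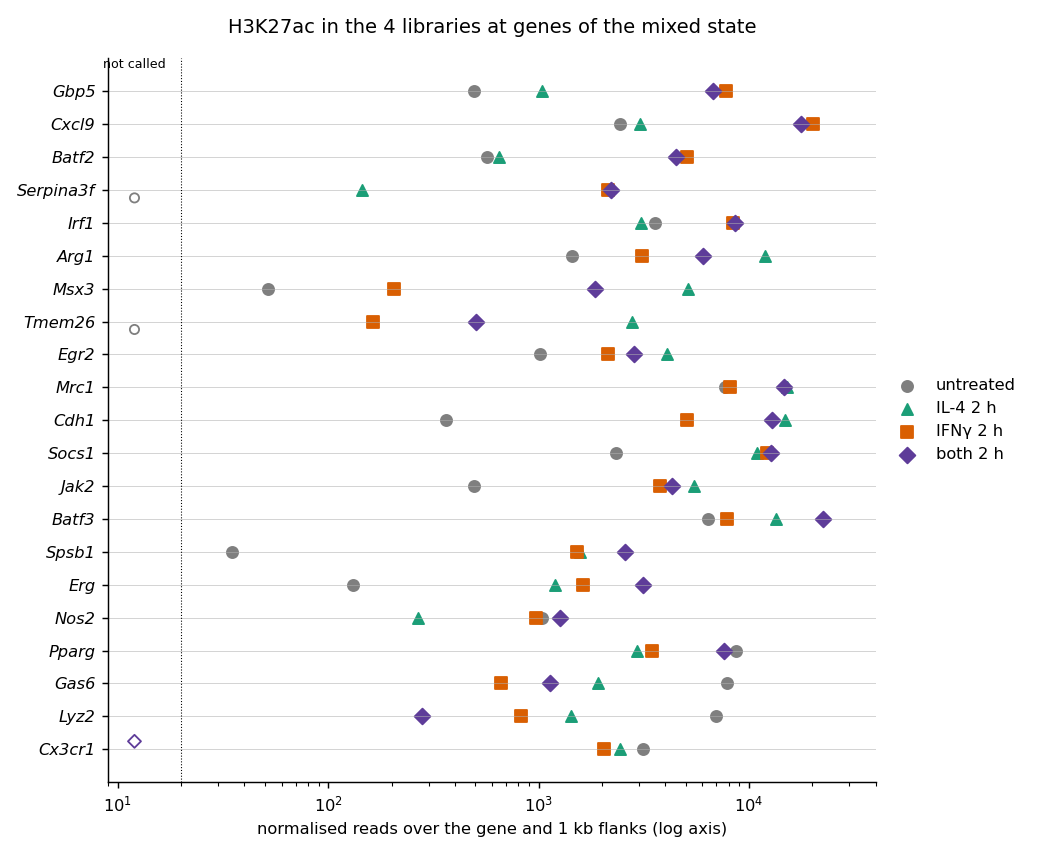
Normalised H3K27ac reads over 21 genes (rows) in the untreated, IL-4, IFNγ and combined libraries at 2 h on a log axis, with open symbols left of the dotted line for libraries with no called island. The purple diamonds of both cytokines sit with IFNγ for Gbp5, Cxcl9 and Batf2, between the cytokines for Arg1 and Msx3, to the right of both for Batf3 and Erg, and left of the other 3 libraries for Lyz2.

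Of 24 NF-kB and inflammatory genes 5 were higher and 4 lower, with a median of 0.33, not far from the 14.9% and 11.6% of all genes. Ccl2 and Ccl7 are 1 region counted for both genes, as are Ccl3 and Ccl4, and Cxcl1 and Cxcl2 share theirs. The region over the monocyte chemokine genes Ccl2 and Ccl7, 140.6 kb long and shared with Ccl8, Ccl11 and Ccl12, had 11823 normalised reads in untreated cells, 35086 with IL-4, 37452 with IFNγ and 33567 with both. The region over Ccl3, Ccl4, Ccl6 and Ccl9 had 21663 normalised reads in untreated cells, 11140 with IL-4, 12742 with IFNγ and 10488 with both, and was 2.07-fold lower than untreated (95% interval 2.02 to 2.11). All 3 treated libraries were high at the first and low at the second. Cxcl1, a chemokine for neutrophils, had 1614 normalised reads in untreated cells, 843 with IL-4, 519 with IFNγ and 232 with both, with a region shared with Cxcl2, and was 6.96-fold lower than untreated (95% interval 6.08 to 8.00). With both cytokines Cxcl1 stood lowest of the 4. Il1a, which encodes interleukin-1α, had 269 normalised reads in untreated cells, 1775 with IL-4, 2377 with IFNγ and 1996 with both, with a region shared with Ckap2l, and per called kb had -0.18. The Ccl2 and Ccl3 regions had 0.99 and -0.81 by reads per kb and did not pass. Of 14 AP-1 and ATF genes 4 were higher and 0 lower: Batf2, Batf3, Maff, a small Maf protein, and Fosl2, with a list median of 0.41. Fosl2 had 1871 normalised reads in untreated cells, 8077 with IL-4, 8891 with IFNγ and 7758 with both, and by reads per kb 0.20. Junb stood at 1.47-fold and, in the C/EBP list where 0 of 7 passed in either direction and the median was -0.03, Cebpb at 1.27-fold.

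Metabolic lists had few calls, beside 14.9% higher and 11.6% lower over all genes compared. Of 23 cholesterol synthesis genes 2 were higher, Pmvk and Ebp, and 0 lower, with a median of 0.30. Pmvk, phosphomevalonate kinase, had 595 normalised reads in untreated cells, 523 with IL-4, 2492 with IFNγ and 2719 with both, and both libraries with IFNγ stood apart. Hmgcs1, an early enzyme of the pathway, stood at 0.718 of untreated and did not pass. Of 18 glycolysis and HIF genes 2 were higher and 1 lower, with a median of 0.27. The glucose transporter gene Slc2a1 had 1883 normalised reads in untreated cells, 4154 with IL-4, 6298 with IFNγ and 4831 with both, and Hk3, a hexokinase, 2553 normalised reads in untreated cells, 3696 with IL-4, 5737 with IFNγ and 5674 with both. Pfkfb3, a regulator of glycolytic flux, was the lower one, at 1779 against 3678 reads. Per called kb these 3 did not pass, with 0.97, 0.97 and -0.13, and of the 2 cholesterol genes Ebp had 0.42. Of 20 housekeeping genes 3 were higher and 0 lower, with a median of 0.23: B2m, which interferons induce, Ywhaz and Rps18. Per called kb 0 of the 20 passed.

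Genes of macrophage identity were held or lower, while over all genes compared 14.9% were higher and 11.6% lower. Of 22 measured members 0 were higher and 5 lower (Lyz2, Cx3cr1, Gas6, Cd14 and Mpeg1), with a median of -0.13, and Csf1r and Spi1 had log2 ratios of 0.07 and 0.08. Lyz2, the lysozyme gene of macrophages, lies with its copy Lyz1 in the region chr10:117272801-117307600, 34.8 kb long. This region had 6954 normalised reads in untreated cells, 1428 with IL-4, 828 with IFNγ and 279 with both. It was 24.9-fold lower than untreated (95% interval 22.2 to 28.1), and the order was untreated, IL-4, IFNγ and then both. Lyz1 and Lyz2 are near-identical copies, so reads may be split or lost between them. Its log2 ratio per called kb was -2.52. Cx3cr1, the receptor for fractalkine, had 3149 normalised reads in untreated cells, 2443 with IL-4 and 2050.1 with IFNγ, and no island with both. Merging over all 13 libraries gave Cx3cr1 a log2 ratio of 0.22. Gas6, a ligand of the TAM receptors that take up dying cells, had 7820.4 normalised reads in untreated cells, 1911 with IL-4, 665 with IFNγ and 1135 with both, in a region shared with Tmem255b. Cd14, the co-receptor for lipopolysaccharide, had 11896 normalised reads in untreated cells, 4716 with IL-4, 6202 with IFNγ and 4353 with both, in a region shared with 4 genes, and per called kb it did not pass, at -0.93.

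The same loci could be read in libraries that the comparison did not use, with size factors over all 13 libraries. With both cytokines at 4 h Lyz2 had 676 reads, Gas6 1000.3 and Apoe 902, and Cx3cr1 had no island. In the 2 h comparison, scaled over 4 libraries, Lyz2, Gas6 and Apoe had 279, 1135 and 618. Acsl1, Pfkfb3 and Rxra, also lower at 2 h, had 944, 1779 and 2169 in that comparison. With both at 4 h they had 2143, 3337 and 4039 reads. The scaling differs between these values, so a change from 2 h to 4 h was not tested. With IFNγ alone at 4 h Lyz2 had 3859 reads and Apoe 577, and Gas6 had no island. In scramble shRNA cells Lyz2 had 4300 reads untreated and 2131 after 4 h of IFNγ, Gas6 4573 and 857, and Apoe 5731 and 1646. Acsl1 went the other way, with 1711 and 2313. At Cx3cr1 these libraries had 1968 and 2996 reads, so it was not lower with IFNγ there.

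Among lipid handling genes 0 of 18 were higher and 3 lower, with a median of -0.32. Over all genes compared 14.9% were higher and 11.6% lower, so the 3 lower genes are not far from that share. Apoe, which carries lipids out of cells, had 6043 normalised reads in untreated cells, 1288 with IL-4, 792 with IFNγ and 618 with both, in a region shared with its neighbours Apoc1, Apoc2, Apoc4, Tomm40 and Gm44805. It was 9.79-fold lower than untreated (95% interval 9.03 to 10.6), and all 3 treated libraries were low. Acsl1, which activates fatty acids, had 2526 normalised reads in untreated cells, 1060.5 with IL-4, 1076 with IFNγ and 944 with both, and Mylip, which degrades the LDL receptor, 1489 normalised reads in untreated cells, 789.5 with IL-4, 678 with IFNγ and 634 with both. Per called kb Apoe had -1.90, and Acsl1 and Mylip did not pass, with -0.85 and -0.95.

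Other genes with low ratios were mostly lower with each cytokine alone too, unlike Cx3cr1, which by the 2-fold rule was lower with neither. Cmah, which makes the sialic acid Neu5Gc, had 2679 normalised reads in untreated cells, 96.2 with IL-4, 194 with IFNγ and 88.1 with both, but by reads per kb its log2 ratio was 0.07. Vsig4, a complement receptor of tissue macrophages, had 1019 normalised reads in untreated cells, 166 with IL-4, 117 with IFNγ and 61.2 with both, and was 16.6-fold lower than untreated (95% interval 12.96 to 21.7). Adam22 had 2681 normalised reads in untreated cells, 291 with IL-4 and 83.1 with IFNγ, and no island with both. Siglech, a lectin gene known from plasmacytoid dendritic cells, had 2399.7 normalised reads in untreated cells, 369 with IL-4 and 243 with IFNγ, and no island with both. At Adam22 and Siglech the library with both cytokines was the one with no island. Foxred2, Fer1l6, Prr5, Tmprss7, Rtn1, Csdc2 and Gm30733 were also among the 12 lowest called in both, from 15.7-fold (Gm30733) to 30.2-fold (Foxred2) lower. Per called kb Gm30733 alone of these 7 passed, with -1.02. Foxred2 also fell short with the 13-library merge, at -0.36, and with 10 kb flanks, at -0.19. Of genes with no island with both cytokines Clec2e, a C-type lectin gene, had 1416 reads in untreated cells, Gm39773 1155, Mn1 1023, Kcnj16 873 and Kcnj9 862. Kcnj9, which encodes a potassium channel, had no island in any of the 3 treated libraries, and Mn1 had 660 reads with IL-4 and did not pass per called kb.

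Away from genes the largest gain between called values was at chr1:137994001-138017800, 45.1 kb from Ptprc, which encodes the leukocyte antigen CD45. It had 47.3 reads in untreated cells, 1545 with IL-4, 3685 with IFNγ and 2544 with both, 53.8-fold higher (95% interval 39.7 to 74.8). The region chr13:44665801-44688600, 42.2 kb from Jarid2, had 38.3 reads untreated, 2229 with IL-4, 475 with IFNγ and 1486 with both. At each of them the combination lay between the single cytokines, which were far above untreated. IFNγ was the highest at the first and IL-4 at the second. In 4 regions untreated cells had no island. At chr12:35562801-35585200, 27.8 kb from Ahr, the aryl hydrocarbon receptor gene, there were 749 reads with IL-4, 557 with IFNγ and 2121 with both. At chr4:95464201-95496200, 61.3 kb from Fggy, there were 179, 1394 and 2171. Both of these regions were highest with the 2 cytokines together. The region chr16:24018601-24036600, 29.7 kb from Bcl6, had 330 reads with IL-4, 2433 with IFNγ and 2076 with both, and chr1:161341601-161386400, 9.04 kb from Tnfsf4, had 574, 2810 and 2064.

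Of the 6 intergenic regions with the lowest ratios, 5 had no island with both cytokines. At chr10:84328801-84345400, 25.5 kb from Nuak1, there were 2032 untreated, 423 with IL-4 and 345 with IFNγ. At chr15:3247201-3261800, 8.97 kb from Selenop, there were 1798, 255 and 56.4. The regions chr16:97228401-97253800, near Dscam, and chr10:117310801-117339200, 5.47 kb from Cpsf6, had 2005 and 1838 reads untreated and no island in any treated library at 2 h. The latter begins just past the end of the region over Lyz1 and Lyz2. The region chr4:53217201-53243600, 57.2 kb from Abca1, which encodes a cholesterol exporter, had 2050 reads untreated, 370 with IL-4, 407 with IFNγ and 42.7 with both.

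Set beside the single cytokines, the list medians of the combined treatment lay nearer IFNγ for the GTPase, antiviral and classical lists. For the alternative activation list the median lay nearer IL-4. These 3 comparisons share the 1 untreated library, so only their values are given. The lists were also chosen with earlier results of these data known, so their medians are a description and no independent support. The GTPase list had medians of 2.41 with both, 2.74 with IFNγ and -0.04 with IL-4, and the antiviral list 1.32, 1.22 and -0.08. The alternative activation list had 1.26 with both, 0.31 with IFNγ and 1.45 with IL-4. Gene by gene it was less clear: of its 33 genes 23 were within 2-fold of IL-4 alone and 21 within 2-fold of IFNγ alone. The IL-4 pathway list had 0.85 with both, 0.57 with IFNγ and 0.30 with IL-4. The classical list had 1.16, 1.51 and 0.15. Read directly between treated libraries, the median log2 difference of both over IFNγ was -0.26 for the GTPases, -0.18 for the classical genes and 0.71 for the alternative genes, beside 0.04 over all genes compared. Both over IL-4 gave 2.57, 1.53 and -0.21, beside 0.00 over all genes. Per called kb fewer list members passed in the combined treatment. Higher were 9 of 22 classical, 8 of 33 alternative, 5 of 16 MHC class I, 3 of 21 interferon pathway and 4 of 16 IL-4 pathway genes. Lower were 3 of 22 identity genes. Over all genes compared 6.06% were higher and 2.46% lower by this measure.

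**Figure D4:**
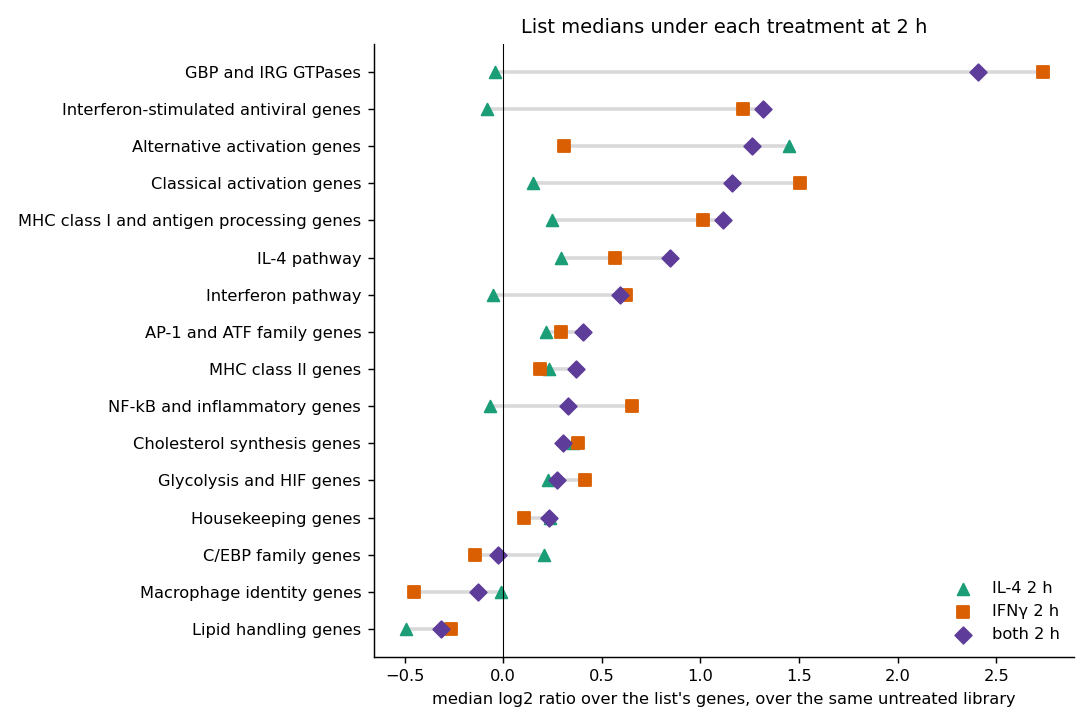
Median log2 ratio over untreated cells (x axis) of the genes of 16 lists (rows) with IL-4, IFNγ or both for 2 h. For both cytokines the GTPases stand at 2.41 near IFNγ at 2.74, and the alternative activation genes at 1.26 near IL-4 at 1.45.

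Markers of other cell types were read in the same way, beside 14.9% higher and 11.6% lower over all genes compared. Of 9 T cell markers in the annotation 6 were measured, 3 higher (Cd3e, Cd247 and Lck) and 1 lower (Cd4), with summed reads of 10704 untreated and 6025 with both. Lck had 447 normalised reads in untreated cells, 544 with IL-4, 1843 with IFNγ and 1988 with both, with a region shared with Fam167b, and Cd3e had 121 normalised reads with IFNγ and 236 with both, and no island in untreated cells or with IL-4. Cd4 had 6924 normalised reads in untreated cells, 1116 with IL-4, 1358 with IFNγ and 1348 with both, in regions shared with Gpr162, Lag3 and P3h3. Of 8 neutrophil markers 3 were measured and Cxcr2 was higher, with summed reads of 1329 and 1583 and no island over S100a8, S100a9 or Ly6g that could be compared. Of 8 mast cell and basophil markers 2 were measured and both, Ms4a2 and Hdc, were higher, with 1560.0 and 5656 summed reads, while Cpa3, Mcpt4 and Kit could not be compared. Of 7 fibroblast markers 2 were measured, Thy1, which was higher, and Pdgfrb, which shares the region of Csf1r. Of 7 natural killer cell markers 2 were measured and Klrk1 was higher, with 1048 and 1465 summed reads. Of 7 B cell markers 3 were measured and Ms4a1 was lower, with 7208 and 3627. Of 8 dendritic cell markers 6 were measured, with Batf3 higher and Siglech lower, and 27354 and 42694 summed reads. Of 6 erythroid markers 2 were measured and 0 passed, with 284 and 234. The part of such cells in the results above was not tested, and per called kb Cxcr2, Ms4a2, Hdc, Thy1, Klrk1 and Ms4a1 did not pass. Cd247 had 47.3 normalised reads in untreated cells, 164 with IL-4, 49.2 with IFNγ and 100.1 with both, and with control reads subtracted its log2 ratio was 0.67.

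The regions chosen in this comparison could be measured in pairs of libraries that it did not use. In scramble shRNA cells, the log2 ratio of 4 h IFNγ over untreated had a median of 0.72 in the 4562 measured regions of the higher set and -0.72 in the 6268 of the lower set, beside -0.01 over all 26272 measured. The medians in shJunB cells were 0.87 and -0.71, and in shCEBPb cells 0.79 and -0.74. In the cytokine experiment at 4 h, both cytokines over IL-4 alone gave 0.98 in the higher set and -0.47 in the lower set, beside -0.03 over all. Both over IFNγ alone at 4 h gave -0.05 and -0.11, beside -0.03. By median, the regions of the 2 h comparison thus stood apart from all regions in the 4 pairs that differ by IFNγ. For both cytokines over IFNγ alone only the medians lay close to all regions, and the spread was wider. The quartiles there were -0.63 and 0.74 in the higher set, -0.80 and 0.51 in the lower set, and -0.53 and 0.42 over all. For both over IL-4 the median in the higher set was 0.55 by reads per kb and 0.63 in regions called in both libraries.

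**Figure D5:**
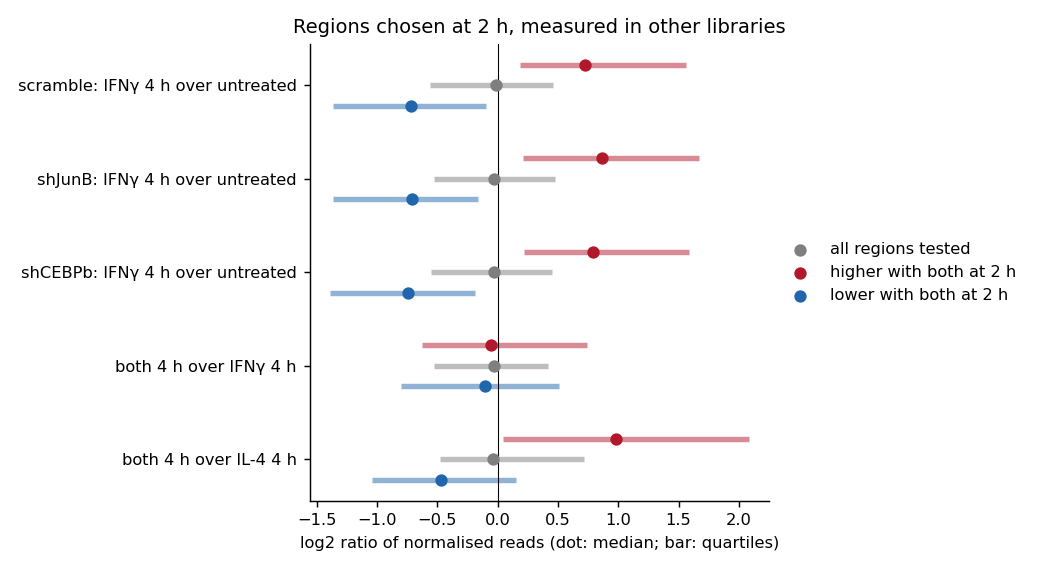
Log2 ratio (x axis; dot for the median, bar for the quartiles over regions) in 5 pairs of libraries not used in the comparison (rows), for all regions, those higher and those lower with both cytokines at 2 h. The red and blue medians lie apart in the 4 pairs that differ by IFNγ, at 0.72 and -0.72 in scramble cells, and close together for both cytokines over IFNγ alone at 4 h.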

How the data were processed

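H3K27ac was measured in 13 libraries, 1 per condition. Per the submitters' processing notes, the authors used Bowtie2 2.2.6 and SICER 1.1 with the builds mm10 and GRCm38. In every deposited file the rows are islands of 1 library, with raw counts of ChIP and of control reads. It also holds the authors' p-value and FDR (at most 0.01) and the deposited ratio of ChIP to control reads. Equal control counts in 29680 of 29680 islands with shared coordinates show that the files share their control reads. Library totals were recovered from the deposited ratio as the smallest whole totals that fit it, so larger ones are possible. Islands of 4 libraries sharing at least 1 bp were merged, and counts divided by median-of-ratios size factors over the 18399 regions called in all 4, with a library lacking an island given the 5th percentile of that library's island reads (52.9 normalised reads untreated, 40.8 with both). Libraries outside these 4 were split over the regions by shared bases. Genes came from RefSeq (GRCm38.p6, 21887 protein-coding).

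With 1 library per condition no test was made. Members and lists were chosen with earlier results of these data known. Named genes are the 12 highest and 12 lowest ratios called in both libraries, the 8 with the most reads called in only 1, up to 4 passing members per list and direction, and fixed genes such as Nos2 and Arg1, passing or not, with the 6 highest and 6 lowest regions away from genes. Csf1r and Spi1 were named after their values were seen. Scripts ran in Python 3.11.15 with numpy 2.4.6, pandas 2.3.3 and scipy 1.17.1 and were tested on simulated data. Alternatives changed the merging, scaling, read measure, FDR, read minimum and gene flanks. Columns of per-sample values left without a sample numbered 0. A few named genes and 1 region near one of them are not reported here.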

Additional observations from a re-analysis of the deposited data

How the results depend on the processing

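No paired analysis was possible because each condition had 1 library and the labels give no replicate numbers. Reads per kb of called length gave 3039 regions higher and 1708 lower, and 800 genes higher and 325 lower. Restricting to regions called in both libraries gave 3081 regions higher and 3953 lower, and a minimum of 200 reads gave 4165 lower. Over every alternative, counts ran from 3039 to 6728 for higher regions, 1708 to 7353 for lower regions, 800 to 2179 for higher genes and 325 to 1685 for lower genes. Reads per kb also moved the medians of the GTPases to 1.00, the alternative activation genes to 0.66 and MHC class I genes to 0.74. Both cytokines over IL-4 at 4 h in the higher regions moved to 0.55 by reads per kb and 0.63 in regions called in both. With 10 kb gene flanks the B cell list had -1.19 and Cd247 -0.91, on the other side of 0. By reads per kb the mast cell list turned to -0.16, and so did Hdc (-0.12), Il1a (-0.18), Ms4a2 (-0.19), Upp1 (-0.02), H2-Ab1 (-0.04), H2-DMb1 (-0.14) and Cmah (0.07). H2-Ab1 turned to -0.29 with control reads subtracted and Cx3cr1 to 0.22 with islands merged over all 13 libraries. Of 120 named genes compared, 62 stayed on the same side of the 2-fold rule under every alternative that gave a value, and 58 changed side under at least 1, the cause of which was not tested. Of these, reads per kb changed the most (52), and scaling by library totals or an FDR under 1e-10 each changed 1 (Rps18). Islands are listed by the authors at an FDR of at most 0.01, so weak signal below it cannot be read.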
